A study of Saccharomyces cerevisiae with 4 samples.

Results

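The 7 genes of histidine biosynthesis, HIS1 to HIS7, were followed in the budding yeast Saccharomyces cerevisiae. They were the rows of the deposited FPKM table whose gene name was HIS1, HIS2, HIS3, HIS4, HIS5, HIS6 or HIS7. Each name matched 1 row, giving 7 rows of 7130. FPKM is the number of sequenced fragments per kilobase of transcript, scaled to the mapped fragments of the library. The series holds 4 libraries of total RNA depleted of ribosomal RNA, from yeast in log-phase growth (optical density near 0.8) in enriched medium. 2 libraries came from cells whose genotype is given as wild type (WT) and 2 from cells given as Asr1-RING, a mutant of the RING finger of the ubiquitin ligase Asr1, called the WT pair and the mutant pair here. The labels give no strain name, no markers shared by the groups, no nature of the RING change and no statement that libraries of a group were separate cultures, so the p-values reflect library-to-library spread alone, and that spread may be technical.

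Yeast makes histidine from phosphoribosyl pyrophosphate (PRPP) and ATP in a pathway of 10 reactions. HIS1 encodes the enzyme of the first reaction, ATP phosphoribosyltransferase, which histidine inhibits. HIS4 encodes a protein with several activities that catalyses reactions 2, 3, 9 and 10. HIS6 encodes the isomerase of reaction 4, HIS7 the imidazole glycerol phosphate synthase of reaction 5, HIS3 the dehydratase of reaction 6, HIS5 the aminotransferase of reaction 7 and HIS2 the phosphatase of reaction 8. Reaction 5 releases AICAR, an intermediate that enters purine synthesis. Transcription of these genes is known to be activated by Gcn4, the activator of general amino acid control, and for HIS4 and HIS7 also by Bas1 together with Pho2 (Bas2), which likewise activate purine genes.

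Gcn4 and Bas1 both recognise a site with the core TGACTC, so the promoters of HIS3 to HIS7 are shown around each match. Promoters were read from the RefSeq genome R64 through its own annotation by gene identifier, as 250 bases before to 50 bases after the first base of the start codon, and all 7 rows had the same length as the R64 gene. The core TGACTC and the longer TGACTCA, which contains it, were searched on both strands. TGACTCA lay in 4 of the 7 promoters, those of HIS1, HIS4, HIS5 and HIS7, against 164 of 6001 nuclear protein-coding promoters (2.73%). TGACTC lay in 6 of the 7, all but HIS2, against 479 of 6001 (7.98%). Each window below is written 5′ to 3′ along the coding strand of its gene, with the match in capitals (TGAGTCA and GAGTCA are the motifs on the other strand) and up to 12 bases on each side.
HIS5 (chromosome IX, plus strand): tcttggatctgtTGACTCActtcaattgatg
HIS4 nearer match (chromosome III, minus strand): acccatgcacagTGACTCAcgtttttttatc
HIS4 farther match (chromosome III, minus strand): ctaatagTGACTCcggtaaattagt
HIS7 farther match (chromosome II, minus strand): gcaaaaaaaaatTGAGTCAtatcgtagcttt
HIS7 nearer match (chromosome II, minus strand): ttcatgagaaaaGAGTCAgacatcgaaaca
HIS6 (chromosome IX, minus strand): gtctagtgtgcaGAGTCAtacggaataatt
HIS3 (chromosome XV, plus strand): ccacctagcggaTGACTCtttttttttctt

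The core of the HIS1 match began 178 bases upstream of the start codon, that of HIS5 at 197 and that of the nearer HIS4 match at 194, counted to the nearest base. The TGACTCA match of HIS7 was farther, at 225 bases. The matches of HIS6 and HIS3, which hold the core alone, were nearer to the start codon, at 89 and 117 bases. The window of HIS2 reached over the neighbouring alanine tRNA row tA(AGC)F, which lies 173 bases upstream of HIS2 in the deposited coordinates. A match is a description of the letters, and these data do not measure binding.

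The mutated gene was read first as a check of the labels. ASR1 was at 7.05 and 6.34 FPKM in the WT pair against 4.99 and 5.39 FPKM in the mutant pair (log2 difference -0.31, SE 0.115, limma adjusted p = 0.157), and a value per gene cannot show a change within the coding sequence. The steps between low values, each worth 1 fragment, gave estimated depths of 41.4 to 47.8 M fragments per library (M, mega). Of 8 genes often deleted or mutated as markers in laboratory strains, LEU2 and URA3 were listed at 0 in all 4 libraries and LYS2 in 3 of them, with 0.00608 FPKM in WT replicate 2. HIS3, also on that list, was present at 25.5 to 27.7 FPKM. A value per gene does not show whether a HIS3 allele is intact, since alleles that lack only an internal stretch still give fragments.

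HIS1 was the member with the highest level and the only one called higher in Asr1-RING in the main fit. Differences between members were not tested. HIS1 (YER055C, sacCer2 chromosome V, 264891 to 265784) was at 173.2 and 187.7 FPKM in the WT pair against 249.8 and 268.7 FPKM in the mutant pair. Both mutant libraries lay above both WT libraries, with means of 180.4 ± 10.3 and 259.2 ± 13.4 FPKM (SD, n = 2 each). The mean was 1.44-fold higher, and the log2 difference was 0.52 (SE 0.0977, 95% interval 0.28 to 0.76, limma adjusted p = 0.0379). Among the members 1 of 7 was called higher, 0 were called lower and 6 did not pass, beside 1.89% of all tested rows called higher (130 of 6892) and 4.95% lower (341 of 6892). Over the ORF (open reading frame) rows alone, 1.95% were called higher and 0.921% lower in the same test. The split of all rows was 70 higher and 447 lower with median centring, and 307 and 316 with quantile normalization. In limma's test 3 of 7 had an unadjusted p under 0.05, namely HIS1, HIS4 and HIS5, all of them higher. The same threshold took in 26.4% of all tested rows (1822 of 6892), 14.6% on the higher side, and 23% of ORF rows. HIS1 no longer passed when WT replicate 1 was left out (limma adjusted p = 0.33), nor WT replicate 2 (0.171), nor Asr1-RING replicate 2 (0.0532), nor with no filter (0.0783), median centring (0.0732) or ORF rows alone (0.0585). Over all 14 alternatives its adjusted p lay between 0.0145 and 0.33 and its log2 difference between 0.45 and 0.61.

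**Figure D1:**
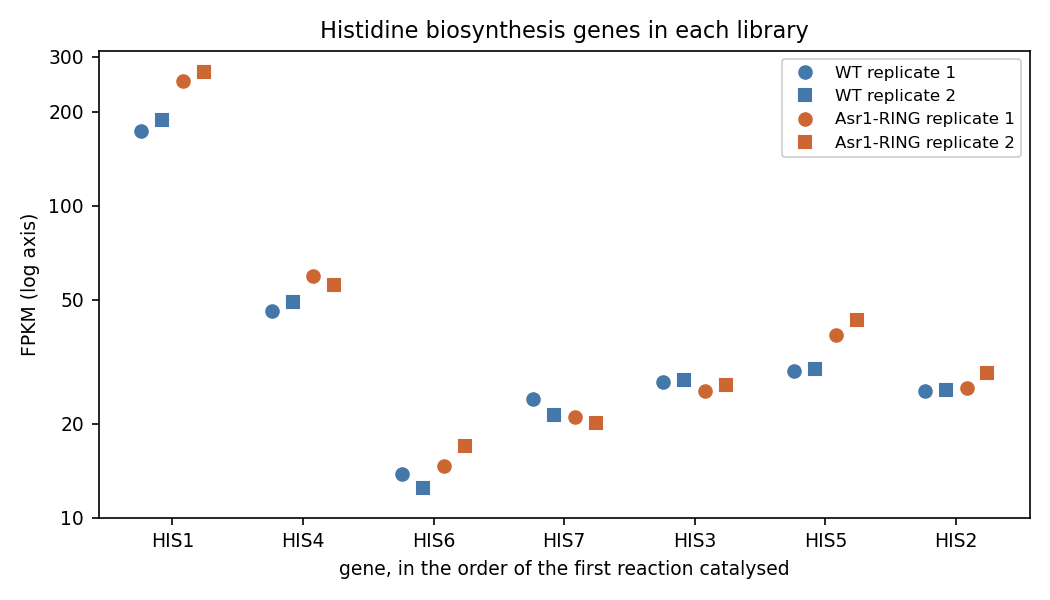
FPKM (log axis) of each histidine gene in each of the 4 libraries, with genes ordered by the first reaction that they catalyse; colour gives the group and shape the replicate. HIS1 lies at 173.2 to 268.7 FPKM, and the other members lie at or below 59.4 FPKM.

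HIS4 (YCL030C, chromosome III, 65934 to 68333), which serves early and late reactions, was at 45.9 and 49.0 FPKM in the WT pair against 59.4 and 55.8 FPKM in the mutant pair. The groups did not overlap, and the mean was 1.22 times that of WT. Its log2 difference of 0.28 (SE 0.0948, 95% interval 0.04 to 0.51) did not pass the limma test (adjusted p = 0.141).

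HIS6 (YIL020C, chromosome IX, 314033 to 314818), the isomerase gene, had the lowest level of the pathway in every library. It was at 13.8 and 12.5 FPKM in the WT pair against 14.6 and 17.0 FPKM in the mutant pair. The mutant libraries were both higher, but the nearest libraries of the groups were close, and the log2 difference of 0.25 (SE 0.117, 95% interval -0.04 to 0.54) did not pass (limma adjusted p = 0.236). Its row overlaps YIL020C-A by 17 bases, so a part of its fragments cannot be assigned with certainty.

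HIS7 (YBR248C, chromosome II, 714802 to 716460), the synthase gene of the middle of the pathway, was at 24.1 and 21.4 FPKM in the WT pair against 21.0 and 20.2 FPKM in the mutant pair. Here the mutant libraries were the lower ones, by a small margin against the spread within WT. The log2 difference was -0.13 (SE 0.103, 95% interval -0.39 to 0.12, limma adjusted p = 0.445).

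HIS3 (YOR202W, chromosome XV, 721947 to 722609), the dehydratase gene, was at 27.3 and 27.7 FPKM in the WT pair against 25.5 and 26.6 FPKM in the mutant pair. The mutant libraries were slightly lower, with a log2 difference of -0.07 (SE 0.09, 95% interval -0.30 to 0.15, limma adjusted p = 0.643). The HIS3 row overlaps YOR203W by 44 bases.

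HIS5 (YIL116W, chromosome IX, 142925 to 144082), the aminotransferase gene, came closest to HIS1 in the size of its difference. It was at 29.6 and 29.9 FPKM in the WT pair against 38.4 and 43.1 FPKM in the mutant pair, so the groups did not overlap and the mean was 1.37 times that of WT. The log2 difference of 0.44 (SE 0.0999, 95% interval 0.19 to 0.69) lay just outside the threshold (limma adjusted p = 0.0601). It passed in 3 of 14 alternatives, among them the fit without Asr1-RING replicate 1 (log2 difference 0.52, adjusted p = 0.0176), where 11.3% of all tested rows were called higher (781 of 6892), and its adjusted p ranged from 0.0176 to 0.422.

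HIS2 (YFR025C, chromosome VI, 203731 to 204738), the phosphatase gene, was at 25.6 FPKM in each library of the WT pair against 26.1 and 29.0 FPKM in the mutant pair. Asr1-RING replicate 1 was close to WT, and the log2 difference of 0.10 (SE 0.0984, 95% interval -0.14 to 0.35) did not pass (limma adjusted p = 0.552).

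**Figure D2:**
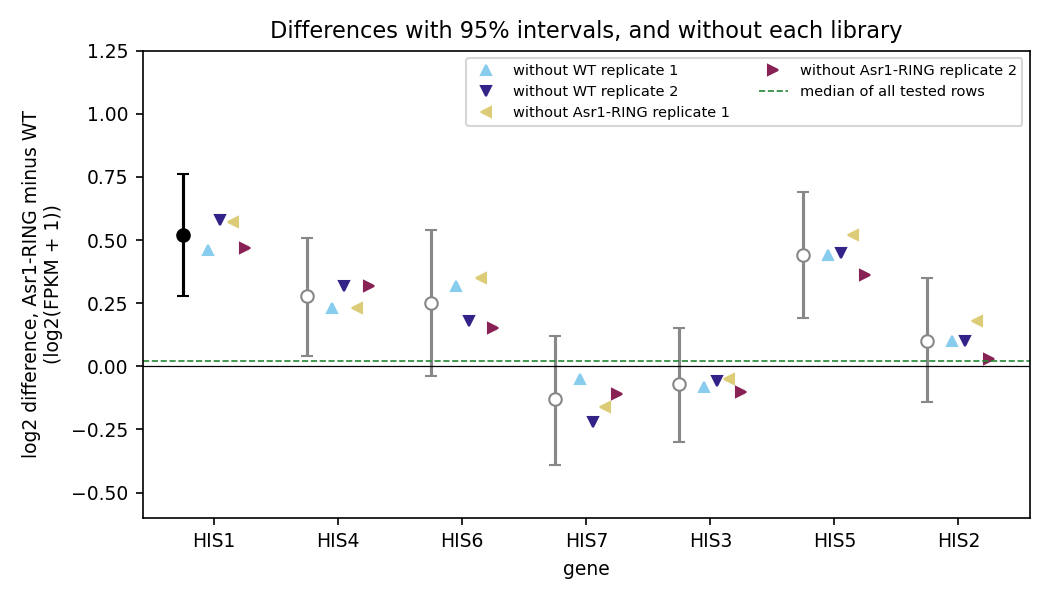
Log2 difference of Asr1-RING minus WT on the log2(FPKM + 1) scale for each histidine gene; circles with bars are the estimates with 95% intervals (filled where the test was passed), triangles the estimates without each library, and the dashed line the median of all tested rows, 0.02. HIS1 and HIS5 stay at or above 0.36 whichever library is left out, and HIS3 and HIS7 stay below 0.

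Across the 7 genes the median log2 difference was 0.25, from -0.13 for HIS7 to 0.52 for HIS1, beside a median of 0.02 over all 6892 tested rows and of 0.03 over 6517 ORF rows. 5 members had both mutant libraries above both WT libraries, an arrangement that 33% of all tested rows and 34.8% of ORF rows showed. The other 2 members had both below, as did 27.2% of all tested rows and 23.7% of ORF rows. The members' median was 0.15 without Asr1-RING replicate 2 and 0.16 with quantile normalization. No member changed the sign of its difference with median centring or quantile normalization. The estimated fragments per library ranged from 5362 to 8435 for HIS1 and from 300 to 450 for HIS6. The counting error of a single library was therefore 1.09% to 1.37% for HIS1 and 4.71% to 5.77% for HIS6, counting error only. The SD between replicates was 5.7% and 5.16% of the mean for HIS1 in WT and Asr1-RING. In WT this SD was also above the counting error for HIS4, HIS6 and HIS7. It was below it in WT for HIS5 (0.665% against at least 2.31%), HIS3 (1.04% against at least 4.09%) and HIS2 (0.173% against at least 3.07%). The close WT values of HIS5, HIS3 and HIS2 are thus no measure of precision.

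The order of the levels was nearly the same in each library. HIS1 stood above HIS4, HIS4 above HIS5 and HIS5 above HIS3 and HIS2, and HIS7 and HIS6 followed, each of these steps in 4 of 4 libraries and with ranges that did not meet. HIS3 and HIS2 were the neighbours that overlapped. HIS3 was above HIS2 in the WT libraries and below it in the Asr1-RING libraries. The summed level of the 7 genes was at 339.3 and 353.7 FPKM in the WT pair against 434.9 and 460.4 FPKM in the mutant pair, a ratio of means of 1.29. HIS1 made up 51.0% and 53.1% of that sum in the WT pair against 57.4% and 58.4% in the mutant pair. Without HIS1 the sum was at 166.1 and 166.0 FPKM in the WT pair against 185.2 and 191.7 FPKM in the mutant pair.

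Ratios within a library do not depend on how libraries are scaled to each other, so each member was also set against HIS3. HIS1 was at 6.35 and 6.78 times the HIS3 level in WT and at 9.78 and 10.1 times in Asr1-RING. HIS5 was at 1.08 times HIS3 in both WT libraries and at 1.51 and 1.62 times in Asr1-RING. Both mutant libraries stood above both WT libraries in these ratios. The ratio to HIS3 was also higher in both mutant libraries for HIS4 (1.68 and 1.77, then 2.33 and 2.10), for HIS6 (0.505 and 0.450, then 0.574 and 0.639) and for HIS2 (0.937 and 0.926, then 1.02 and 1.09). For HIS7 it overlapped between the groups, at 0.883 and 0.772 in the WT pair against 0.823 and 0.758 in the mutant pair. An exact two-sided permutation test of 2 libraries against 2 cannot go below p = 0.333, which was the p for HIS1 and for HIS5, and for HIS7 the exact p was 0.667. The ratios are therefore a description, and they do not show that HIS3 itself stayed the same. HIS3 was lower in both mutant libraries, while HIS1, HIS5, HIS4, HIS6 and HIS2 were each higher in both. Their ratios to HIS3 thus had to be higher as well and add no support to the levels above. The lower HIS3 level also enlarged these ratios. For HIS1 the mean ratio rose 1.51-fold, beside 1.44-fold for its mean FPKM.

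**Figure D3:**
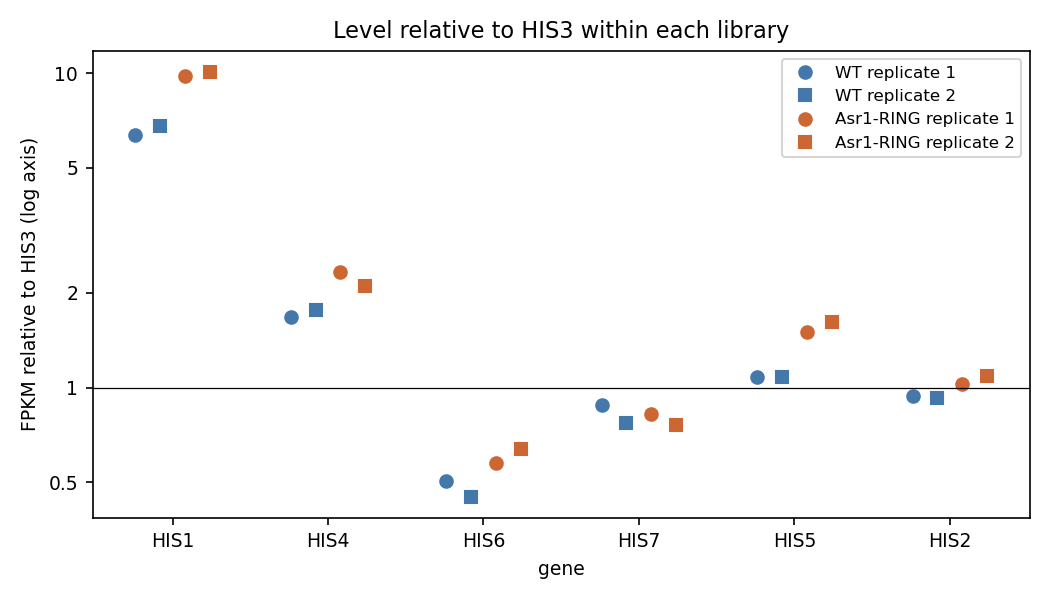
Level of each histidine gene divided by that of HIS3 in the same library (log axis); colour gives the group and shape the replicate. The HIS1 points are at 6.35 and 6.78 in the WT pair against 9.78 and 10.1 in the mutant pair, while the HIS7 points of the groups overlap.

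The members were then ordered by their difference and set beside the promoter matches described above. HIS1, HIS5 and HIS4, the 3 members with the largest log2 differences (0.52, 0.44 and 0.28), all hold TGACTCA. HIS7 holds it as well and had the lowest difference, -0.13. HIS6 and HIS3, with the core alone, were at 0.25 and -0.07, and HIS2, with neither, was at 0.10. The order of HIS4 and HIS6 depended on the fit. HIS6 lay above HIS4 with quantile normalization (0.23 against 0.16). The same held without WT replicate 1 (0.32 against 0.23) and without Asr1-RING replicate 1 (0.35 against 0.23). The whole promoter of HIS7 is given because it holds TGACTCA and the gene stands at the low end of the range of differences. It runs 5′ to 3′ along the coding strand, with the matches in capitals, and the start codon opens the last 50 bases.
HIS7 promoter (R64, chromosome II, minus strand): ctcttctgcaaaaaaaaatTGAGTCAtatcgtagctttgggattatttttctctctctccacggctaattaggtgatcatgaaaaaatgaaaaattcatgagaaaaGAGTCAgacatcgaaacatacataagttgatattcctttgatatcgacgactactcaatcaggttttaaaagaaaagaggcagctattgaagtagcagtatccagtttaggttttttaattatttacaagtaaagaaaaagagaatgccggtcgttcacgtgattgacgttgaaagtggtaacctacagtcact

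**Figure D4:**
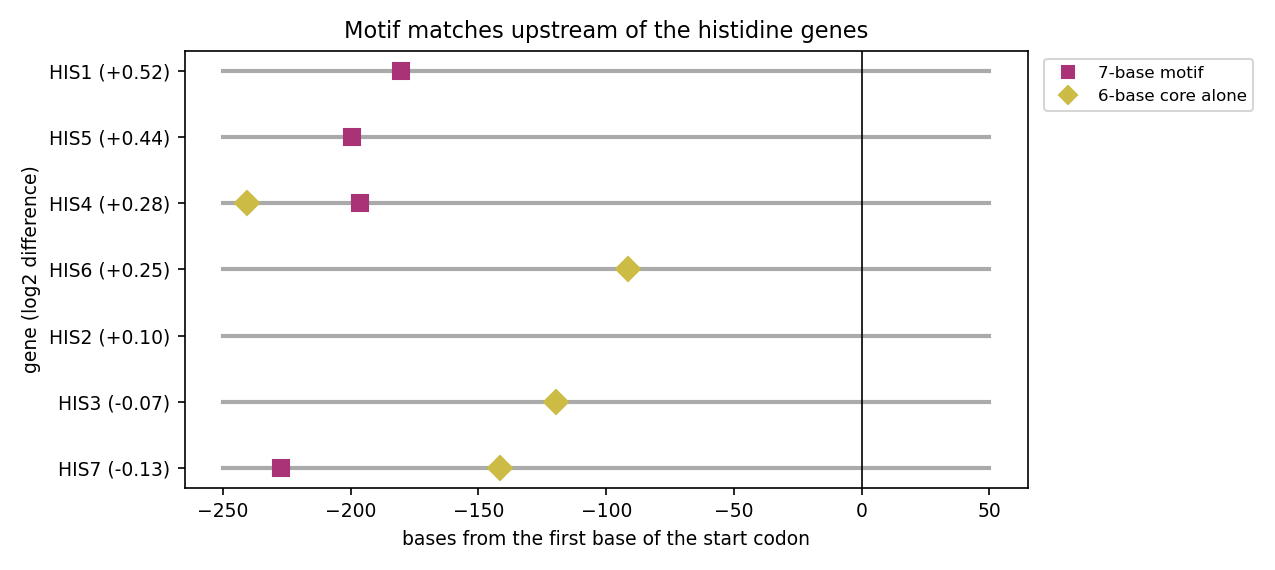
Positions of TGACTCA (squares) and of its core TGACTC alone (diamonds) in the 300 bases searched around each start codon, in bases from the first base of the start codon, with genes ordered by the log2 difference in parentheses. The 3 genes at the top and HIS7 at the bottom hold the longer motif, and HIS2 holds neither. The order is that of the main fit, and HIS4 and HIS6 changed places in some alternatives.

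Among the regulators of these genes, 1 of 8 rose, 1 fell and 6 did not pass. Over all tested rows 1.89% were called higher and 4.95% lower, and over ORF rows 1.95% and 0.921%. GCN4 (YEL009C) was at 495.7 and 591.3 FPKM in the WT pair against 782.6 and 875.6 FPKM in the mutant pair (log2 difference 0.61, SE 0.124, limma adjusted p = 0.0463). The groups did not overlap, and GCN4 no longer passed when WT replicate 1 (limma adjusted p = 0.301), WT replicate 2 (0.0824) or Asr1-RING replicate 2 (0.0767) was left out. With quantile normalization its log2 difference was 1.06. GCN4 is controlled largely at translation, which its RNA level does not show.

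ABF1, a general regulatory factor known to act at HIS7, fell. It was at 19.3 and 18.3 FPKM in the WT pair against 13.1 and 10.6 FPKM in the mutant pair (log2 difference -0.63, SE 0.127, limma adjusted p = 0.0448). ABF1 did not pass when WT replicate 1 (limma adjusted p = 0.34), WT replicate 2 (0.214) or Asr1-RING replicate 2 (0.0526) was left out. PHO2, the partner of Bas1, was at 6.07 and 6.55 FPKM in the WT pair against 4.36 and 4.96 FPKM in the mutant pair and did not pass (log2 difference -0.37, limma adjusted p = 0.123). BAS1 overlapped between the groups, at 10.6 and 7.90 FPKM in the WT pair against 11.8 and 8.88 FPKM in the mutant pair (log2 difference 0.15). The list's median of 0.07 changed sign with median centring (-0.01) and without WT replicate 2 (-0.03).

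The substrate side of the pathway was read from the 5 PRPP synthetase genes, whose products make the PRPP used by HIS1. 1 of 5 rose and 4 did not pass, beside 1.89% of all tested rows called higher. Their median log2 difference was 0.38. PRS2 was at 34.8 and 35.3 FPKM in the WT pair against 47.1 and 49.6 FPKM in the mutant pair (log2 difference 0.45, limma adjusted p = 0.0441). PRS4 had a larger difference of 0.57 and lay outside the threshold (limma adjusted p = 0.0541). All 5 genes had both mutant libraries above both WT libraries, as did 33% of all tested rows and 34.8% of ORF rows. PRS2 did not pass when WT replicate 1 (limma adjusted p = 0.38), WT replicate 2 (0.269) or Asr1-RING replicate 2 (0.0642) was left out, and without Asr1-RING replicate 1, where 11.3% of all tested rows were called higher, the list had 4 genes called higher.

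Purine synthesis takes up the AICAR that reaction 5 releases. Of 11 purine genes 2 rose, 0 fell and 9 did not pass in limma's test, beside 1.89% of all tested rows called higher. The median difference of the 11 was 0.27 on the log2 scale. For 9 of the 11, all of them higher, the unadjusted p was under 0.05. The same held for 26.4% of all tested rows, 14.6% on the higher side. ADE12, adenylosuccinate synthase, was at 87.8 and 96.0 FPKM in the WT pair against 136.8 and 132.6 FPKM in the mutant pair (log2 difference 0.55, limma adjusted p = 0.0287). ADE13, adenylosuccinate lyase, was at 119 and 126.5 FPKM in the WT pair against 164.7 and 186.3 FPKM in the mutant pair (log2 difference 0.51, limma adjusted p = 0.0467). ADE17, one of a pair of enzymes that use AICAR directly, had a log2 difference of 0.38 and did not pass (limma adjusted p = 0.0611). Neither ADE12 nor ADE13 passed when WT replicate 1 was left out (limma adjusted p = 0.301 and 0.368) or WT replicate 2 (0.148 and 0.216), and ADE13 also failed when Asr1-RING replicate 2 was left out (0.0641). Without Asr1-RING replicate 1 the purine list had 4 genes called higher, beside 11.3% of all tested rows. The core TGACTC lay in 8 of the 11 purine promoters and TGACTCA in 1.

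On the side of histidine uptake and use limma's test passed 0 of 7 protein-coding genes, with 1 below an unadjusted p of 0.05, a smaller share than the 26.4% of all tested rows. Without Asr1-RING replicate 1 the list had 1 gene called higher, beside 11.3% of all tested rows. The one under an unadjusted 0.05 was HTS1, the histidyl-tRNA synthetase, at 133.6 and 139.7 FPKM in the WT pair against 175.4 and 202.3 FPKM in the mutant pair (log2 difference 0.46, limma adjusted p = 0.0629). HIP1, the high-affinity histidine permease, overlapped between the groups, at 99.9 and 95.7 FPKM in the WT pair against 98.3 and 108.9 FPKM in the mutant pair (log2 difference 0.08). The general amino acid permease GAP1 was at 8.04 and 6.70 FPKM in the WT pair against 6.24 and 5.93 FPKM in the mutant pair (log2 difference -0.24, limma adjusted p = 0.286). The median of this list, 0.03, changed sign with median centring (-0.04), with quantile normalization (-0.05) and without Asr1-RING replicate 2 (-0.04).

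The 7 nuclear histidine tRNA rows, tH(GUG)E1 and its copies, all fell, while the mitochondrial row tH(GUG)Q was listed at 0. Lower calls took in 4.95% of all tested rows (341 of 6892) but 0.921% of ORF rows (60 of 6517). Most rows called lower were therefore not ORF rows, and the alanine tRNA row tA(AGC)F was among them (log2 difference -1.85). The histidine tRNA copies share their values or nearly so, and tH(GUG)E1 was at 17417 and 14299 FPKM in the WT pair against 5527 and 6191 FPKM in the mutant pair (log2 difference -1.43, limma adjusted p = 0.00335). These rows are 72 bases long, shorter than the 204 bases that the steps of the values took off each length, so their levels cannot be set against those of the HIS genes. The summed FPKM of all rows was also lower in the mutant pair, at 3742848 and 3777252 beside 5369809 and 4870207 in WT. The part of these lower sums in the differences of the HIS genes was not tested.

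The lists of 3 other amino acid pathways had medians of 0.23 to 0.35, beside 0.25 for the histidine genes. In arginine synthesis 1 of 9 genes rose, 0 fell and the median log2 difference was 0.23. In the same fit 1.89% of all tested rows and 1.95% of ORF rows were called higher. The arginine gene that rose was ARG7, the mitochondrial ornithine acetyltransferase, at 25.9 and 28.0 FPKM in the WT pair against 38.5 and 47.3 FPKM in the mutant pair (log2 difference 0.65, limma adjusted p = 0.0422). ARG7 did not pass when WT replicate 1 (limma adjusted p = 0.333) or 2 (0.195) was left out. In lysine synthesis limma's test passed 0 of 6 tested genes, with 4 below an unadjusted p of 0.05 and a median of 0.35, with LYS1 and LYS20 both at 0.44. In aromatic amino acid synthesis it passed 0 of 14, with 7 below an unadjusted p of 0.05 and a median of 0.23. Over all tested rows 26.4% lay below that unadjusted p. ARO4, a first enzyme of that pathway, was at 0.44 (limma adjusted p = 0.0673), TRP2 at 0.55 (adjusted p = 0.0789), LYS1 at an adjusted p of 0.0651 and ARO9, an aromatic aminotransferase of breakdown, at -0.43 (adjusted p = 0.0675). Without Asr1-RING replicate 1, genes called higher numbered 2 in the arginine, 3 in the lysine and 4 in the aromatic list, beside 11.3% of all tested rows. Without Asr1-RING replicate 2 the aromatic list had 1 called lower. The difference between these lists and the histidine genes was not tested. With no filter or with ORF rows alone, none of GCN4, ABF1, PRS2, ADE12, ADE13 and ARG7 passed limma's test, and with median centring ABF1 alone of them did. Without the intensity trend ADE12 alone passed (the others had adjusted p from 0.0507 to 0.0584), and with quantile normalization GCN4 and ABF1 alone did. TGACTCA lay in 4 of 9 arginine, 2 of 7 lysine and 3 of 14 aromatic promoters.

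**Figure D5:**
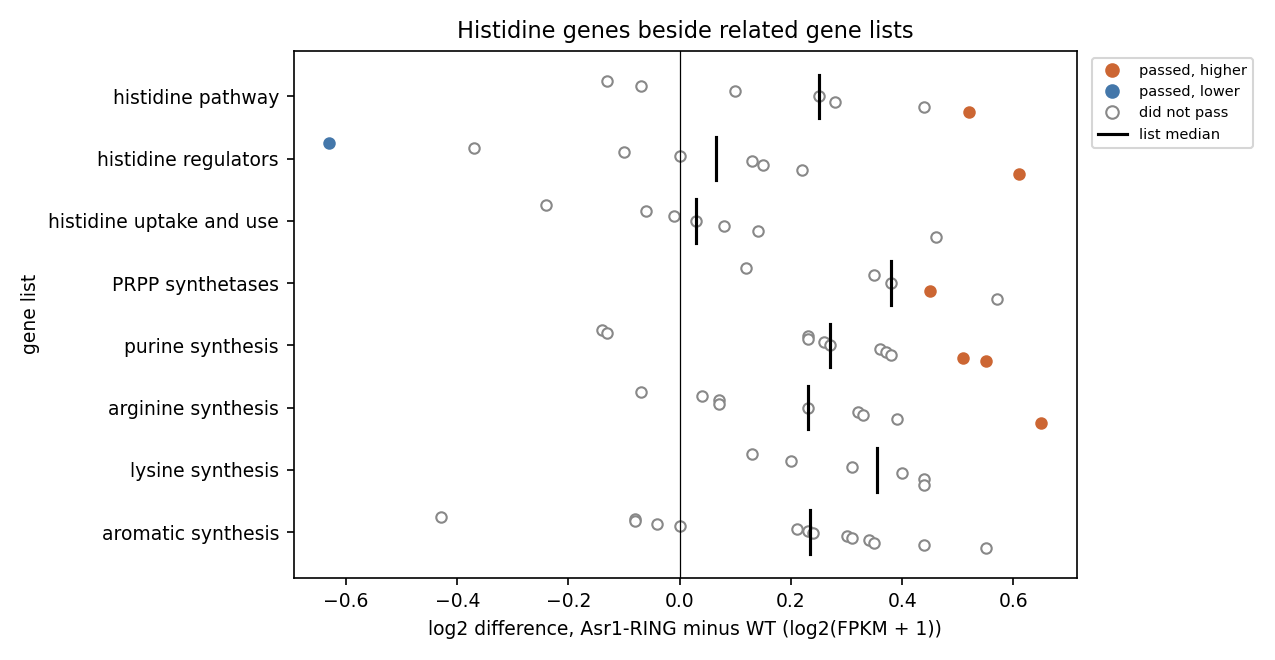
Log2 difference of Asr1-RING minus WT on the log2(FPKM + 1) scale for each tested gene of the histidine pathway and of 7 related lists; orange points passed as higher, blue as lower, open points did not pass, and bars are list medians. The histidine median of 0.25 lies among those of the arginine, aromatic, purine and lysine lists, 0.23 to 0.35.

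The rows next to the members were read to see whether whole neighbourhoods moved. Of 16 rows that adjoin or overlap a member, 1 rose, 1 fell and 14 did not pass. Over all tested rows 1.89% were called higher and 4.95% lower. The row that fell is a tRNA row, and the 7 nuclear histidine tRNA rows on other chromosomes fell as well. PRM5, which is divergent from HIS5 across 1358 bases, was at 22.6 and 22.3 FPKM in the WT pair against 34.7 and 50.6 FPKM in the mutant pair (log2 difference 0.87, limma adjusted p = 0.0485). PRM5 did not pass when WT replicate 1 (limma adjusted p = 0.283) or 2 (0.224) was left out, nor with no filter (0.132), ORF rows alone (0.0652), median centring (0.0514), a pseudocount of 5 (0.0519), quantile normalization (0.0532) or no trend (0.0564). The tRNA row tA(AGC)F upstream of HIS2 fell (log2 difference -1.85, limma adjusted p = 0.0139), from 409.3 and 376.1 FPKM to 80.8 and 143.9 FPKM. It did not pass when WT replicate 1 (limma adjusted p = 0.097) or 2 (0.0664) was left out, nor with no filter (0.0895).

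The divergent neighbours that share a short upstream region with a member did not pass. MRM1, a ribosomal RNA methyltransferase of mitochondria that starts 237 bases from HIS3, had a log2 difference of 0.16 (limma adjusted p = 0.355). FAF1, which starts 272 bases from HIS6, had one of -0.06 (limma adjusted p = 0.874). The overlapping rows were at -0.07 for YIL020C-A beside HIS6 and at 0.19 for YOR203W beside HIS3, and neither passed (limma adjusted p = 0.813 and 0.452). ARO4, already given, lies 416 bases upstream of HIS7 on the same strand, and the difference in ARO4, 0.44, stood beside -0.13 in HIS7.

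The rows most like the mean profile of the members were sought among 4687 other ORF rows that averaged 10 FPKM or more, by Euclidean distance of centred log2(FPKM + 1) values over the 4 libraries. The mean centred profile of the members was -0.09 and -0.10 in the WT pair against 0.06 and 0.14 in the mutant pair. The nearest rows were CBC2, a subunit of the nuclear cap-binding complex (distance 0.00552), LST7 (distance 0.0148) and NAM8, a splicing factor of the U1 particle (distance 0.0168). Their log2 differences were 0.19, 0.21 and 0.19, and none passed (limma adjusted p = 0.236, 0.216 and 0.242). The members themselves lay farther from their own mean, from 0.109 for HIS2 to 0.335 for HIS1 and 0.362 for HIS7. The named rows were picked as the nearest of 4687, so this contrast does not show how alike the members are.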

How the data were processed

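Total RNA of 4 yeast libraries was sequenced, and the authors deposited 1 table of FPKM values per row and library. Per the submitters' processing notes, TopHat2, Cufflinks and the build sacCer2 were used. The sources used here do not state tool versions, the annotation, strand use or the treatment of reads with several matches. Titles gave group and replicate number, and value columns were matched by the description label, with 0 columns unused. Deposited starts count from 0 and are printed counting from 1.

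FPKM is not a count, so no count model was fitted. Rows whose 4 libraries averaged 1 FPKM or more (6892) were put on the log2(FPKM + 1) scale and fitted as Asr1-RING minus WT with limma 3.58.1 (R 4.3.3), using its trend option; residual degrees of freedom were 2 and prior ones 3.71, with Benjamini-Hochberg adjustment over all 6892 rows. A row passed at an adjusted p under 0.05. The pseudocount of 1 shrinks differences of low rows. Folds are ratios of mean FPKM. Depths were estimated as those at which values of 0.5 to 8.5 fragments on ORF rows of 350 to 3000 bp were whole within 0.1 after 204 bp were taken off each length (85.9% to 90.2% of 51 to 64 rows). Fragments per member follow from depth and length minus 204 bp.

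The members, lists, naming rule and tests were chosen with earlier results of these data known. The rule named all members, ASR1, GCN4, BAS1, PHO2, HIP1 and HTS1, list genes and neighbours that passed or else up to 4 per list with the smallest p, divergent or overlapping neighbours, and the 3 ORF rows most like the members' mean profile. List genes beyond it were named after their values were seen. Alternatives were 2 pseudocounts, 2 filters, 2 scalings, ORF rows alone, 2 kinds of moderation, a replicate block and each library left out in turn, 14 in all. The fit was tested on simulated data before use. Tables and figures were made with matplotlib 3.10.9, scipy 1.17.1, pandas 2.3.3 and numpy 2.4.6 under Python 3.11.15. The promoter sequence of HIS1 is not reported here.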

Additional observations from a re-analysis of the deposited data

How the results depend on the processing

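The count of histidine genes called higher, 1 in the reported fit, was 0 with no filter, with median centring or with ORF rows only, 2 with a mean of at least 10 FPKM or robust moderation, and 0 to 2 with a library left out. None was called lower under any of the 14 alternatives. Leaving out a library of a pair assumes that the lone library varies like the other group. Their median log2 difference, 0.25, was 0.18 with median centring, 0.16 with quantile normalization and 0.15 to 0.23 with a library left out. No member's difference changed sign in these alternatives. The HIS1 call was kept in 8 of 14.

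Over all rows, 130 were called higher. The count was 21 with no filter, 216 with a mean of at least 10 FPKM, 70 with median centring, 307 with quantile normalization, 36 with ORF rows only, 256 with robust moderation and 16 (without WT replicate 1) to 781 (without Asr1-RING replicate 1) with a library left out. The 341 called lower became 182 with no filter, 23 with ORF rows only and 197 to 553 with a library left out. With the replicate block 237 rows were called higher, and HIS1 stayed the 1 member called (log2 difference 0.52, adjusted p = 0.0384). Same-numbered libraries share only a number, and the correlation of their deviations from the group means was -0.07.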
